A study of Mus musculus with 4 samples.

Results

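The genes described here are Six2, Six3, Six4 and Six5, which encode transcription factors of the sine oculis homeobox family, and Eya1, Eya2, Eya3 and Eya4, which encode their coactivators. They were picked by symbol and are 8 of the 32285 features counted in single cells of the embryonic mouse nose. Their levels are given across epithelium, neurons, muscle and mesenchyme, and between control and mutant libraries. The sine oculis homeobox proteins bind DNA through a homeodomain and a conserved domain beside it. Eya proteins do not bind DNA themselves: they are recruited by these factors, activate transcription and carry a tyrosine phosphatase domain. Together with Pax and Dach proteins they form a network known from the cranial placodes, including the olfactory placode that gives rise to the olfactory epithelium, and from skeletal muscle, cartilage and kidney progenitors.

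Whole noses were taken at embryonic day 14.5 and profiled with the 10x Genomics 3-prime assay, in which a unique molecular identifier (UMI) marks each captured transcript end. The 2 control libraries are titled WT. Their genotype label reads C57Bl/6J, whereas the series text calls the controls yap flox/flox;taz flox/flox, and the labels do not settle which applies. The 2 mutant libraries are titled Sox10Cre/Yap/Taz cKO, and their genotype label combines Tg(Sox10-cre)1Wdr with Yapflox and Tazflox on C57Bl/6J. The series text gives them as Sox10cre;yap flox/WT;taz flox/flox, so that 1 Yap allele stayed wild type. Yap1 and Wwtr1, the genes for Yap and Taz, encode coactivators of TEAD transcription factors. Cre is driven here by Sox10, a gene of neural crest and its glia, so recombination is not intended in every cell of the nose. The labels mention 2 noses of each genotype without tying a nose to a library, so the p-values below measure the spread between these libraries, which may be technical.

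Retained cells had 500 or more genes and a mitochondrial share of 10% or less, which left 4075, 2474, 2995 and 4195 cells in control 1, control 2, mutant 1 and mutant 2, with 19767873 to 35331450 UMIs per library. Values are listed in this library order throughout. A cell entered a class when it held UMIs from at least 2 genes of that class's marker list and failed every other list. This gave 1161 epithelial cells, 51 neurons, 52 muscle cells and 9620 mesenchymal cells. Markers outside the lists bore out the epithelial, muscle and mesenchymal labels, with Krt8 at 184 to 281 counts per 1000000 UMIs (CPM) in epithelium, Des at 247 to 441 CPM in muscle and Col1a1 at 1750 to 2760 CPM in mesenchyme. The neuron class was less clean: Stmn4 was at 62.9 to 186 CPM there, but Col1a1 reached 532 CPM and Actc1 201 CPM. Of the other neuron markers outside the lists, Ina was at 115, 199, 0 and 277 CPM in neurons. Gap43 was at 319 to 964 CPM in neurons but also at 118 to 140 CPM in mesenchyme. Stmn2, a gene of the neuron list itself, was at 91.2 to 103 CPM in mesenchyme. Control 2 stood apart in its epithelium, with 119 cells against 325 to 365 in the other libraries, 4 neurogenic cells and 0 respiratory-type cells. Libraries shared 4 to 8 barcodes per pair. Yap1 over all cells was at 65.0, 65.2, 56.4 and 55.97 CPM (log2 change -0.25 ± 0.075 (SE), edgeR adjusted p = 0.909). Wwtr1 was at 118, 145, 123 and 132 CPM over all cells, where the groups overlapped (-0.09 ± 0.13, edgeR adjusted p = 0.935), and at 215, 189, 227 and 296 CPM in glia, from 86, 41, 87 and 48 UMIs, with both mutants above both controls. How many of all genes separated in this way in glia was not computed. The 3-prime assay may count transcripts that lack floxed exons.

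Six2 and Six3 are neighbours on chromosome 17, and the upstream sequence of both is shown because the neighbours differed in their pattern over cell classes. In the GENCODE models on GRCm38 Six2 lies at chr17:85684277-85688274 on the minus strand and Six3 at chr17:85613608-85629302 on the plus strand. The RefSeq models, from which gaps to neighbouring genes are given below, are longer at Six2 and leave 36.5 kb between the pair. The sequences below, from RefSeq on GRCm38.p6, are the 230 bases at chr17:85688275-85688504 for Six2 and the 250 bases at chr17:85620584-85620833 for Six3. They read 5′ to 3′ towards the RefSeq start of the gene and hold no annotated exon of it, although the Six3 stretch lies inside the full Six3 locus, which other transcripts extend. Capitals mark CCAAT, or ATTGG where the match is on the other strand.
Six2 upstream: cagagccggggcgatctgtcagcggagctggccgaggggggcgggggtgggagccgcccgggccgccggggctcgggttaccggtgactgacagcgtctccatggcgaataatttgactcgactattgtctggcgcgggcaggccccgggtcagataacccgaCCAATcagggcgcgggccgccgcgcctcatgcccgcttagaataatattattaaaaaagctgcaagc
Six3 upstream: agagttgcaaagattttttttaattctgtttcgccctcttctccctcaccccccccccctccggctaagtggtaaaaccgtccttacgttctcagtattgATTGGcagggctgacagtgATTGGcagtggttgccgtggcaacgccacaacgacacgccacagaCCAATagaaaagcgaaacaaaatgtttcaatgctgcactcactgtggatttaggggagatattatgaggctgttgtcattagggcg
Six2 had 1 CCAAT match, 87 bases before its start, and Six3 had 3, the first of them 150 bases before its start. A match to CCAAT was present in 37.4% of the 32851 promoter windows of 300 bases in the RefSeq table. The 300-base Six2 window was 67.3% G or C with 37 CpG dinucleotides, and the Six3 window was 50% G or C with 14, beside medians of 52.7% and 7 over all windows. GGAATG, the core letters bound by TEAD factors, was found on neither strand of any window of the 6 members that matched the table (Six2, Six3, Six4, Six5, Eya3 and Eya4). Of all windows, 14.7% held it. The letters TCAGGTTTC, the MEF3 element that these transcription factors are known to bind, matched once, in a Six4 window, and in 0.429% of all windows. The match is in capitals in the 29 bases at chr12:73113326-73113354, which lie in a Six4 exon and read along the gene, so the element appears as its reverse complement.
Six4 site: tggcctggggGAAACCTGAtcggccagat
The letters searched for do not contain one another, and a match is a description of the sequence, not evidence of binding.

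Six3, a gene known for its part in the forebrain, the eye and the lens and olfactory placodes, was an epithelial gene in these noses. Its level in epithelium was 110.3, 50.7, 106.1 and 133.0 CPM, from 1531 UMIs in all. In mesenchyme it was 0.331, 0.296, 0.158 and 0.356 CPM, from 20 UMIs, although that class held far more cells. The ranges did not approach each other in any library. The ratio of the summed levels was 382, with an exact 95% interval of 246 to 627 that covers counting error only. No Six3 UMI was seen in muscle, endothelial, immune or glial cells; 3 UMIs would correspond to 1.14 CPM in the immune class and 3.52 CPM in muscle.
Of all Six3 UMIs, 73.8% fell in epithelium, 0.964% in mesenchyme and 21.6% in cells that passed 2 or more marker lists. With every cell thinned to 2000 UMIs, 12.4%, 10.2%, 11.04% and 14.9% of epithelial cells and 0.036% to 0.143% of mesenchymal cells had a Six3 UMI. Without thinning these shares were 22.7% to 35.8% and 0.141% to 0.22%, at median depths of 7286 to 11336 and 5207 to 8376 UMIs per cell. Immune cells, the background here, had none, which allows a thinned share of up to 3.53% to 6.67% in single libraries.

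Six3 was present in each epithelial sub-gate and differed in level between them. In keratinocyte-type epithelium, defined by Krt5, Krt14, Krt15, Trp63 and Sfn, it was at 86.2, 40.5, 73.0 and 107.8 CPM. In neurogenic epithelium, defined by a marker list that includes Lhx2, Emx2, Neurog1 and Hes6, it was at 162.95, 67.3, 146.8 and 148.9 CPM, with 4 cells behind the control 2 value. In respiratory-type epithelium, defined by Cbr2, Bpifa1, Foxj1 and Aqp5, the 3 libraries with such cells gave 274.6, 245.4 and 334.0 CPM. The respiratory-type values lay above every keratinocyte-type value. Within these 3 libraries the respiratory-type level was higher by 3.19 times (control 1), 3.36 times (mutant 1) and 3.10 times (mutant 2). A cell could enter both sub-gates, so no interval is given. In the neuron class Six3 came from 9 UMIs in control 2 and 4 in mutant 2, and from 0 in the other libraries. Its antisense partner Six3os1 overlaps the Six3 locus and was at 80.5, 44.4, 87.5 and 90.1 CPM in epithelium and at most 0.378 CPM in mesenchyme. Whether reads were assigned by strand is not stated in the sources used here, so the counts of these overlapping genes are uncertain.

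**Figure D1:**
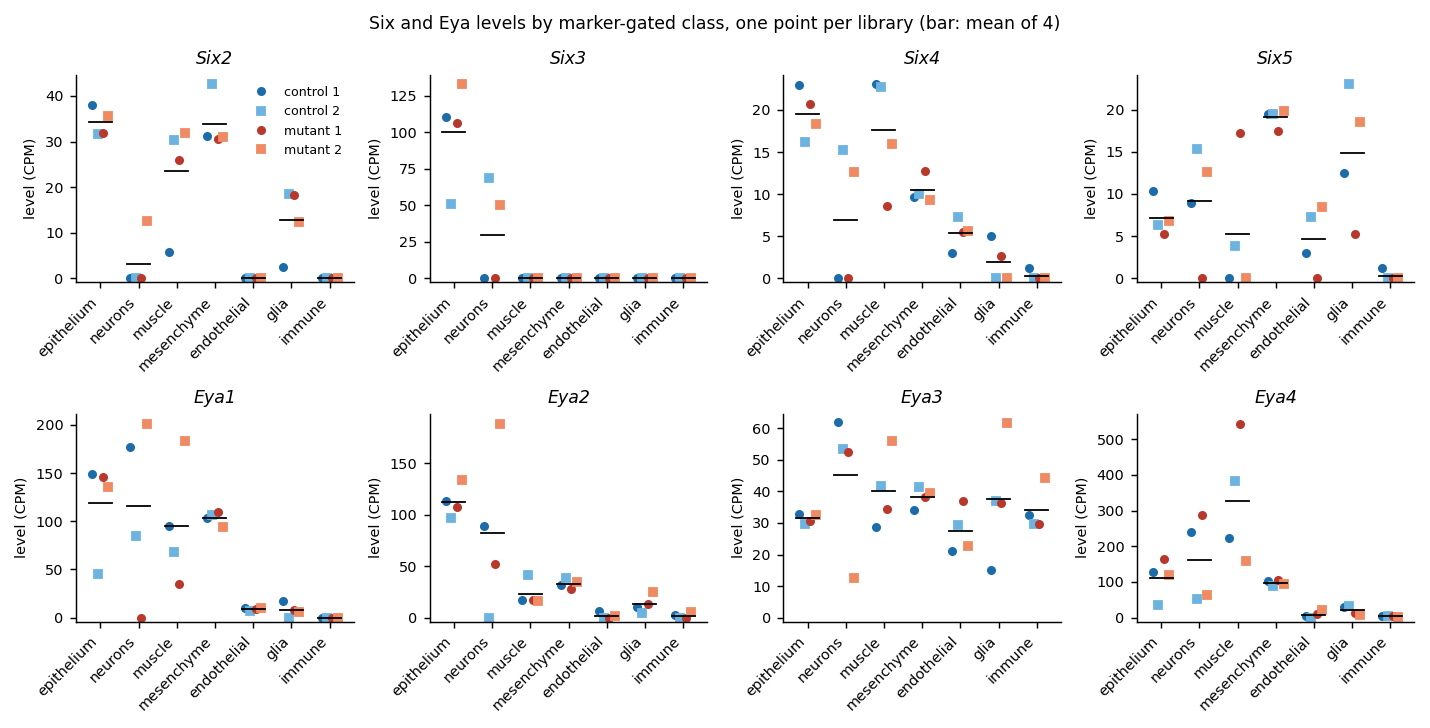
Level of each of the 8 genes (y axis, CPM, linear) in 7 marker-gated classes (x axis); each point is 1 library, in blue shades for control and red or orange for mutant, and each bar is the mean of 4 libraries. Six3 sits at 50.7 to 133.0 CPM in epithelium and at or near 0 in mesenchyme, whereas the Eya3 means lie between 27.5 and 45.2 CPM in all 7 classes.

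Six2, known for holding kidney progenitors undifferentiated and for its expression in facial mesenchyme, was at like levels in epithelium and mesenchyme. Epithelium gave 38.0, 31.7, 31.9 and 35.5 CPM and mesenchyme 31.1, 42.6, 30.6 and 31.0 CPM, and the ranges overlapped. Muscle gave 5.76, 30.3, 25.9 and 31.9 CPM from 17 UMIs. Neurons gave a single Six2 UMI, in mutant 2. That class leaves out cells past the neuron gate and another gate. The 113 cells past the epithelial and neuron gates gave 38.1, 47.7, 20.5 and 48.7 CPM of Six2. The 346 cells past the neuron and mesenchyme gates gave 32.9, 24.9, 23.8 and 9.32 CPM. Endothelial and immune cells gave none, and 3 UMIs would correspond to 1.13 and 1.14 CPM there. The mesenchyme to neuron ratio, for the neuron class alone, was 12.0, with an exact 95% interval of 2.15 to 473. In mutant 2, the library with the neuron UMI, it was 2.47. After thinning, 5.72%, 6.69%, 5.07% and 4.79% of mesenchymal cells had a Six2 UMI (13.0% to 18.6% without thinning), and no immune cell had one.

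Within mesenchyme Six2 varied more than its class mean shows. In the chondrogenic sub-gate, defined by Col2a1, Col9a1, Acan and Matn1, Six2 was at 85.1, 148.8, 75.3 and 78.1 CPM. Each value was above the whole-mesenchyme value of the same library, by 2.73, 3.50, 2.46 and 2.52 times. Chondrogenic cells are part of that class, so no interval is given. Cells with a UMI of a regional gene were also described as strata, which share cells with one another. Six2 was at 62.6, 82.9, 88.7 and 55.3 CPM in Barx1-positive and at 45.8, 73.6, 77.6 and 45.6 CPM in Pax9-positive mesenchyme. At the other end it was at 14.4, 23.3, 3.67 and 13.2 CPM in Tbx18-positive and at 3.41, 6.11, 1.41 and 7.34 CPM in Pou3f4-positive mesenchyme. The Barx1 and Pou3f4 strata did not overlap in any library. In epithelium Six2 was lower in keratinocyte-type cells, at 19.1 to 30.2 CPM, than in neurogenic cells, at 48.8 to 89.7 CPM, or respiratory-type cells, at 54.7 to 83.0 CPM, again without overlap. The 89.7 CPM is that of control 2, from 4 UMIs in 4 cells, and the epithelial sub-gates can share cells.

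Six4, a MEF3-binding factor of muscle and placodes, was higher in epithelium than in mesenchyme. Epithelium gave 22.9, 16.2, 20.7 and 18.4 CPM and mesenchyme 9.64, 10.0, 12.7 and 9.31 CPM, with no overlap. Muscle gave 23.1, 22.8, 8.64 and 15.97 CPM from 17 UMIs, and overlapped both. The highest mesenchymal stratum was Pax9-positive, at 20.03, 26.8, 28.0 and 31.6 CPM, and the Tbx18 stratum held 3.24 to 8.12 CPM. Mnat1, which overlaps Six4 in the RefSeq models but not in GENCODE's (Six4 lies at chr12:73099609-73113456, minus strand), was at 88.1 to 94.2 CPM in epithelium and 91.1 to 99.1 CPM in mesenchyme, so it did not share the class difference of Six4.

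Six5, which lies next to the myotonic dystrophy kinase gene Dmpk, was the member that passed the test below as lower in epithelium than in mesenchyme. Mesenchyme gave 19.5, 19.5, 17.5 and 19.8 CPM, and epithelium 10.4, 6.34, 5.28 and 6.74 CPM, without overlap. Muscle held 3 Six5 UMIs in all, at 0, 3.79, 17.3 and 0 CPM, and the mesenchyme to muscle ratio of 5.40 had an interval of 1.84 to 26.2. Mean levels over the mesenchymal sub-gates and the strata with at least 62 cells per library ranged only from 13.4 CPM in Dlx5-positive to 23.3 CPM in chondrogenic cells. Dmpk, 0.7 kb from Six5 (chr7:19094594-19098549, plus strand), was at 25.9, 37.9, 51.8 and 0 CPM in muscle and 4.06 to 5.04 CPM in mesenchyme.

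Among the coactivators, Eya4 (chr10:23102963-23350786, minus strand) stood out in muscle. Its level there was 222, 383, 544 and 160 CPM, from 261 UMIs in 52 cells, beside 102.8, 89.8, 104.5 and 94.8 CPM in mesenchyme, with no overlap. With cells thinned to 2000 UMIs, 22.2% to 71.4% of muscle cells, 11.5% to 14.6% of mesenchymal cells and 0% to 2.22% of immune cells had an Eya4 UMI (77.8% to 100.0%, 21.8% to 31.2% and 2.27% to 5.17% without thinning). Eya1, mutated in branchio-oto-renal syndrome, had no such muscle level: it was at 95.1, 68.3, 34.6 and 183.6 CPM in muscle and 103.3, 106.6, 109.1 and 94.3 CPM in mesenchyme, which overlapped. The gene on the higher-coordinate side of Eya1 (chr1:14168954-14310235, minus strand) is Msc, a muscle regulator 442 kb away, at 245, 201, 112 and 271 CPM in muscle and below 1 CPM in mesenchyme.

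Eya1 and Eya4 had like patterns in epithelium. Epithelial Eya1 was 148.8, 45.1, 145.9 and 135.2 CPM, and Eya4 was 128.5, 35.2, 163.1 and 118.9 CPM, so that control 2 was the lowest for both. Neurogenic epithelium held 318, 449, 245 and 298 CPM of Eya1 and 339, 224, 299.99 and 373 CPM of Eya4. The control 2 values there come from 4 cells, with 20 UMIs of Eya1. In keratinocyte-type epithelium Eya1 was 76.7, 24.2, 65.8 and 76.7 CPM and Eya4 was 52.5, 25.7, 49.6 and 44.9 CPM, below every neurogenic value. Control 2 was again the lowest library within keratinocyte-type cells, of which it held 103. The sub-gates were not exclusive, so keratinocyte-type cells may include neurogenic or respiratory-type ones. The cause of the low control 2 values was not tested. In chondrogenic mesenchyme Eya1 was 189, 248, 199 and 199.7 CPM and Eya4 was 189, 235, 301 and 217 CPM, above the whole-mesenchyme values in each library. The lowest Eya1 stratum with at least 62 cells per library was Zic1-positive, at 47.1, 51.9, 47.7 and 44.0 CPM, and Eya4 there was at 40.5 to 81.4 CPM.

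Eya2 (chr2:165595032-165771727, plus strand), another placodal coactivator gene, was higher in epithelium than in mesenchyme and, within mesenchyme, highest in chondrogenic cells. Epithelium gave 113.0, 96.5, 107.5 and 134.2 CPM and mesenchyme 31.8, 38.9, 27.4 and 34.4 CPM, without overlap. Respiratory-type cells gave 179.98, 189 and 237 CPM, and keratinocyte-type cells 110.9, 89.6, 91.4 and 120.3 CPM. Chondrogenic mesenchyme gave 70.5, 101.8, 74.0 and 89.0 CPM, whereas Lhx8-positive mesenchyme gave 18.1, 13.0, 13.6 and 24.97 CPM. Thus 31.2% of Eya2 UMIs came from epithelium and 44.2% from the far larger mesenchyme.

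Eya3 (chr4:132638987-132724765, plus strand) varied little between classes. It was at 32.9, 29.6, 30.8 and 32.5 CPM in epithelium, 34.1, 41.4, 38.1 and 39.5 CPM in mesenchyme and 32.4, 29.6, 29.8 and 44.3 CPM in immune cells, where Six2, Six3 and Eya1 had no UMI. Thinned shares of cells with an Eya3 UMI were 5.99% to 9.32% in epithelium, 6.94% to 8.53% in mesenchyme and 5.33% to 10.6% in immune cells. Mean levels in the strata with at least 62 cells per library ranged from 31.5 to 44.9 CPM.

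**Figure D2:**
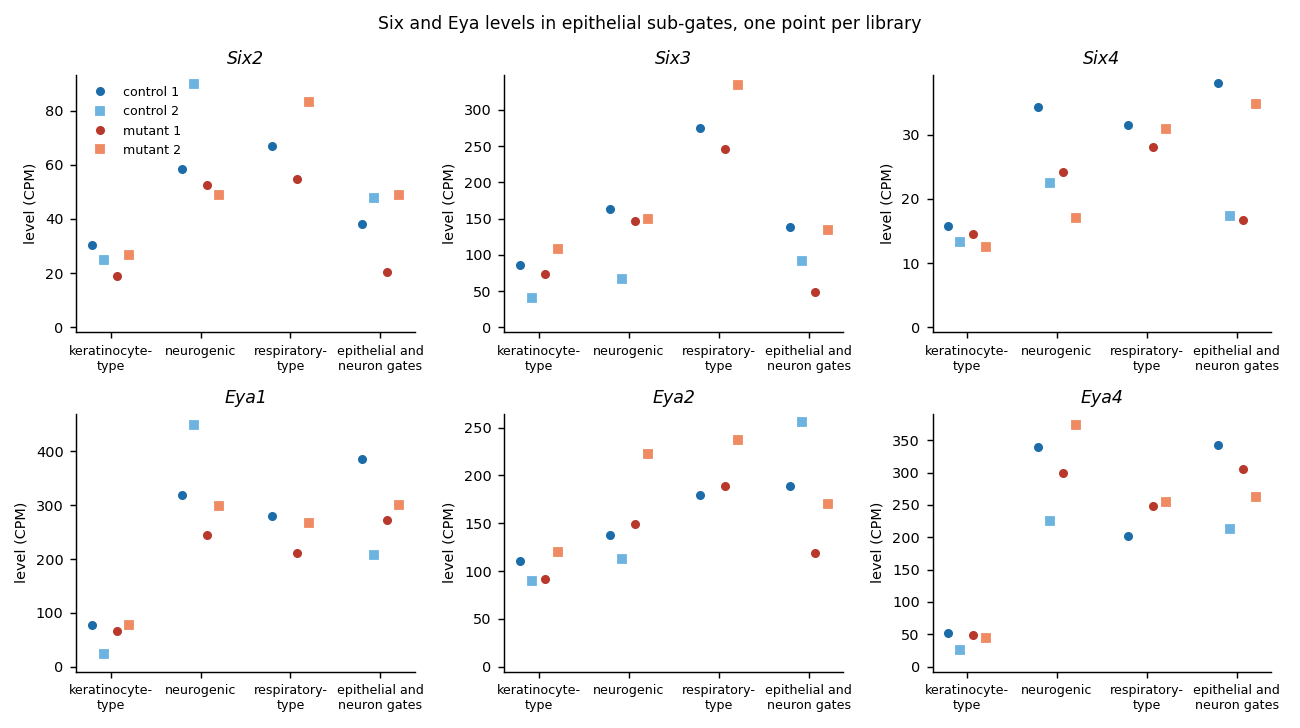
Levels (y axis, CPM, linear) of 6 members in epithelial sub-gates and in cells past both the epithelial and the neuron gate (x axis); each point is 1 library. Eya1 and Eya4 sit at 24.2 to 76.7 and 25.7 to 52.5 CPM in keratinocyte-type cells and higher in every other sub-gate, and control 2 has no respiratory-type cells.

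**Figure D3:**
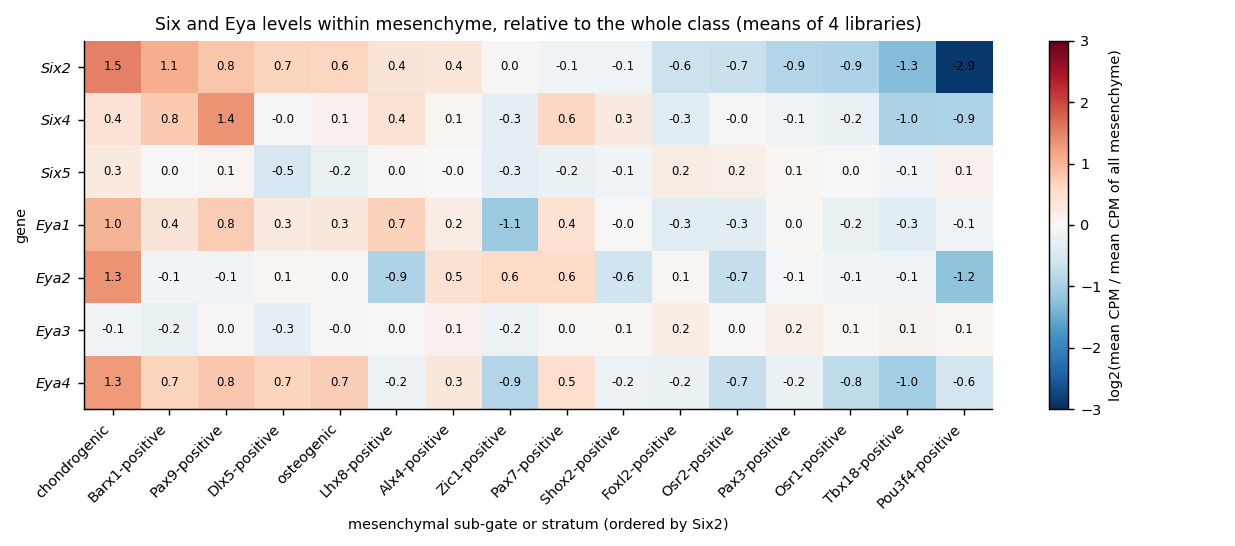
Mean level over 4 libraries in mesenchymal sub-gates and strata (columns, ordered by Six2) relative to the mean level of all mesenchyme (log2 ratio, colour and number in each cell), for 7 members (rows). Six2 runs from 96.8 CPM in chondrogenic to 4.57 CPM in Pou3f4-positive cells, while the Six5 and Eya3 rows stay near 0; Six3 is left out because it had 20 mesenchymal UMIs.

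The differences between classes were tested in 1 edgeR fit of 16 sums, 4 classes in each of 4 libraries, with the library as a block. Between epithelium and mesenchyme 4 of the 8 members passed an adjusted p of 0.05, beside 55.5% of all 10495 genes tested. Higher in epithelium, as were 27% of all genes, were Six3 (log2 difference 8.38 ± 0.29 (SE), adjusted p = 3.1e-14), Eya2 (1.79 ± 0.17, adjusted p = 1.409e-08) and Six4 (0.94 ± 0.17, adjusted p = 6.226e-05). Lower, as were 28.5% of all genes, was Six5 (-1.36 ± 0.20, adjusted p = 7.268e-06). Six2 (0.08 ± 0.14), Eya1 (0.17 ± 0.22), Eya3 (-0.25 ± 0.12) and Eya4 (0.15 ± 0.24) did not pass, with adjusted p of 0.0861 to 0.663. The members' median difference was 0.16 and that of all genes 0.02. Without control 2, whose epithelium stood apart, Eya1 (0.47, adjusted p = 0.00491) and Eya4 (0.41, adjusted p = 0.0137) passed as well.

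Muscle differed from mesenchyme in 3 of the 8 members, beside 33.9% of all genes. Eya4 was higher by 1.89 ± 0.31 (adjusted p = 6.616e-05) and Six4 by 1.14 ± 0.42 (adjusted p = 0.0414) on the log2 scale, and Six5 was lower, by -2.26 ± 0.70 (adjusted p = 0.0166). The median gene differed by -0.17. Higher in muscle were 15.1% and lower 18.8% of all genes. Eya4 passed under each of the 10 alternatives run. Six4 did not pass with no filter on low counts (edgeR adjusted p = 0.190), with stricter cells (0.0698), or without control 1 (0.275), control 2 (0.200) or mutant 2 (0.0886), and Six5 did not pass without control 1 (0.160) or mutant 2 (0.0662).
Neurons differed from mesenchyme in 2 of 8 members, beside 18.2% of all genes (8.26% higher, 9.94% lower). Six3 was higher by 6.77 ± 1.03 (adjusted p = 0.000129) and Six2 lower by -3.83 ± 0.93 (adjusted p = 0.00544). Six3 rested on 13 UMIs and Six2 on 1 UMI in neurons, so neither fitted value is a measured fold. With neurons defined by 3 markers the Six3 difference was -3.73 (adjusted p = 0.753). With a cell counted in each gate it passed, 4 of 8 members passed, beside 35.4% of genes, and Six2 differed by -0.53 (adjusted p = 0.00539). In that fit the 346 cells past the neuron and mesenchyme gates sit in both sums and outnumber the 51 neurons. With neurons widened by cells that also passed the epithelial gate, Six2 differed by -0.17 (adjusted p = 0.555). Of the members, 6 of 8 then passed, beside 47.2% of genes: Six3, Eya1, Eya2, Eya4 and Six4 were higher (24.2% of genes) and Six5 lower (23% of genes).

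Other genes of the network were placed beside the members. Of 14 partner genes, 11 were tested between epithelium and mesenchyme, and 7 passed (63.6%, beside 55.5% of all genes), with a list median of -0.15 beside 0.02 over all genes. Pax6, a regulator of eye and olfactory placodes (log2 difference 6.90), and the corepressor gene Tle3 (0.72) were higher in epithelium. Pax3 (-1.86), Pax9 (-1.22), Tle2 (-2.89), Sobp (-0.86) and the Dach family gene Dach2 (-0.71) were lower. Six6, Pax2 and Pax8 had at most 14 UMIs in all cells. Of 12 placodal region genes, 11 were tested and 9 passed (81.8%, beside the same 55.5%), with a list median of 2.18. Of these, 8 were higher in epithelium, among them Otx2 (7.98), Pitx1 (4.79), Sox2 (4.77), Tfap2a (2.85), Gata3 (2.18) and Dlx5 (0.89), and Gata2 (-4.18) was lower.
Between muscle and mesenchyme 5 of 11 partners (45.5%) and 6 of 11 placodal genes (54.5%) passed, beside 33.9% of all genes. The list medians were -0.49 and -2.72, beside -0.17 over all genes. Among those that passed, Pitx3 (8.76), Pitx1 (4.47) and Pax7 (2.56), a gene of muscle progenitors, were higher in muscle. Dach2 and Gata2 were lower there, on 2 and 1 muscle UMIs, as were Pax3, Pax9, Tle2, Dlx5 and Gata3, on 0. Between neurons and mesenchyme 7 of 11 partners (63.6%) and 5 of 11 placodal genes (45.5%) passed, beside 18.2% of all genes. The list medians were 0.49 and 1.43, beside -0.13 over all genes. Among those that passed, Otx2 (8.79), Pax6 (7.19), Sox2 (5.04), Dlx6 (3.16), Dach1 (2.93), Tle1 (1.68) and Tle3 (1.14) were higher in neurons. Their neuron UMIs were few and mostly uneven between libraries. Otx2 had 8, 29, 14 and 0, Pax6 8, 6, 6 and 3, and Sox2 36, 23, 0 and 1. Dlx6 had 6, 2, 0 and 7, and Dach1 92, 16, 18 and 12. Tle1 had 42, 11, 4 and 2, and Tle3 5, 7, 4 and 5. Pax3, Pax9, Tle2 and Gata2 were lower, on 5, 0, 1 and 1 UMIs.

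Members were next examined for presence in the same cell, after thinning to 2000 UMIs. In mesenchyme Eya1 and Eya4 were found together in 380 cells, where 181 would be expected from their separate shares in each library. The count exceeded the expectation in every library, at 115 against 54.8, 71 against 32.5, 97 against 51.6 and 97 against 42.5. Six2 was found with Eya4 in 158 cells against 67.4 expected and with Eya1 in 150 against 76.3. Pairs with Six5 or Eya3 lay nearer to the expectation: Six5 and Eya1 shared 50 cells against 52.2 expected, and Eya3 and Eya4 shared 98 against 92.8. In epithelium Six3 and Eya2 shared 57 cells against 24.6 expected, Eya1 and Eya4 68 against 25.5, and Six2 and Six3 19 against 6.65. Thinning equalises depth, but cells of a class also differ in type, as the sub-gates show, so a shared stratum and a shared cell are not separated by these counts, which were given no test.

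**Figure D4:**
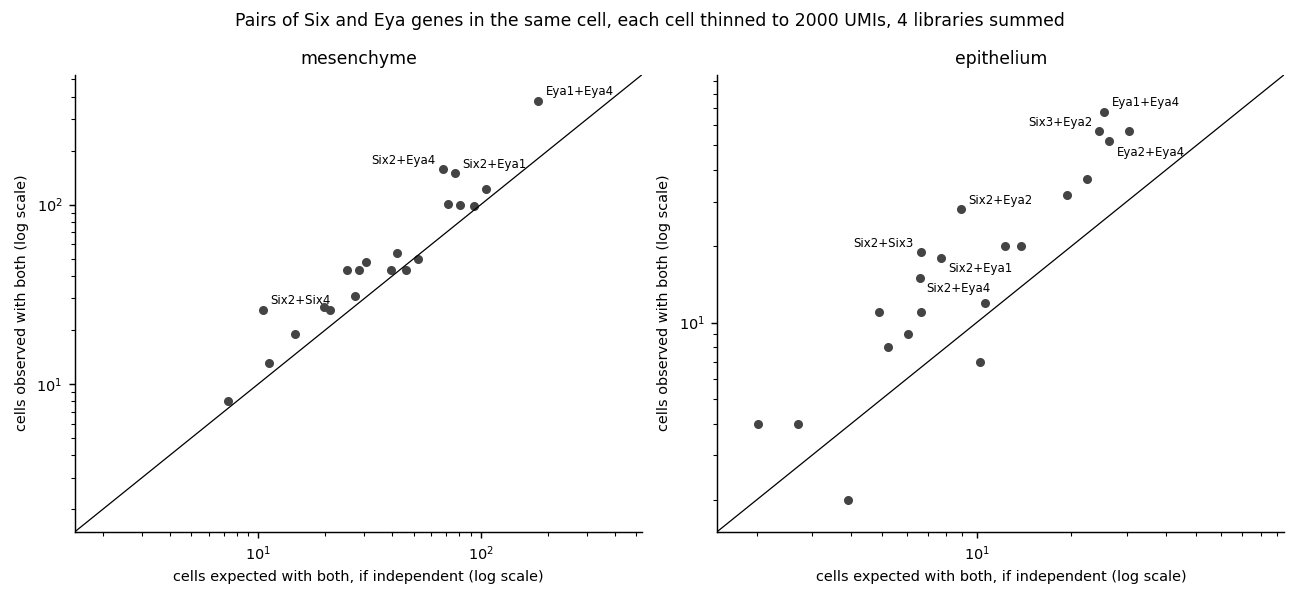
Number of cells with UMIs of both genes of a pair (y axis, log scale), in mesenchyme and epithelium, each cell thinned to 2000 UMIs. The x axis (log scale) is the number expected if the genes were independent within each library. A point is a pair and the line marks equality. Pairs with the fewest expected cells are left out. Eya1 with Eya4 lies farthest up in both panels, at 380 and 68 cells.

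Across 22 cell groups with at least 20 cells in every library, levels of the members were also compared as Pearson's r of log2(CPM + 10), as a description, since groups share libraries, depth and, among the strata, cells. Eya1 and Eya4 had r = 0.94, Six2 and Eya4 0.89, Six4 and Eya1 0.81, and Six2 and its neighbour Six3 0.05. Among 10103 genes, the most alike to Eya4 were Eya1, Sobp (0.93) and Mpped2 (0.92). Six2 was most like Fxyd7 (0.92) and CJ186046Rik (0.91) among the genes reported. CJ186046Rik lies 0.2 kb from Six2 and was at 12.8, 14.9, 12.6 and 10.8 CPM in mesenchyme. Six3 was most like Serpinb11, Cldn6 and Cyp2f2 (each r above 0.99), and Cldn6 is itself one of the epithelial gate genes. Only epithelium and its keratinocyte-type sub-gate were epithelial groups here, so any gene confined to epithelium would reach a high r with Six3. The neurogenic and respiratory-type sub-gates were not among the 22 groups. Eya1 was followed most closely by Trp53bp1 (0.95), Zbtb44 (0.95) and 1110032A03Rik (0.94), and Eya2 by Parm1 (0.93), Ptpru (0.90) and Tob1 (0.90). For Six4 these were Alkbh5 (0.92), Ctf1 (0.88) and Fgfr1op (0.87), for Six5 A230057D06Rik (0.98), Mfap2 (0.97) and Clip3 (0.97), and for Eya3 Rnf2 (0.87), Cul9 (0.86) and Ankrd12 (0.84).
Of the remaining neighbours, Zmynd8, 12.4 kb from Eya2, was at 67.6 to 79.6 CPM in epithelium and 54.6 to 59.3 CPM in mesenchyme (log2 difference 0.34, edgeR adjusted p = 0.0224), a smaller difference than that of Eya2. Fbxo46, 21.3 kb from Six5, was at 6.29 to 7.27 CPM in mesenchyme and 7.75 to 8.81 CPM in epithelium, so it was not lower in epithelium as Six5 was. Slc2a10 near Eya2 and Xkr8 near Eya3 were at 4.21 to 5.72 and 3.12 to 4.51 CPM in mesenchyme. Xkr9 near Eya1, Gm10824 and Gm47843 near Eya4 and Ptafr near Eya3 had 3, 2, 7 and 101 UMIs in all cells.

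The mutant libraries were then compared with the controls, to ask whether the Sox10Cre, Yap and Taz genotype went with other levels of the 8 genes. No member passed in any class tested. Over all retained cells edgeR called 0% of 18080 genes (883 had an unadjusted p under 0.05, and DESeq2 called 30), and none of the 8 members had an unadjusted p under 0.05. Six2 gave 30.0, 37.7, 29.5 and 30.4 CPM there (log2 change -0.21 ± 0.13, adjusted p = 0.909), and the groups overlapped. In sums over all cells a smaller share of a cell type and less RNA per cell cannot be told apart. The members' changes lay between -0.21 and 0.38, with a median of 0.01, and the median of all genes was 0.00.

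In mesenchyme edgeR called 0% of 16047 genes (1144 at an unadjusted p under 0.05, 42 by DESeq2). Of the 7 members tested, since Six3 was below the filter on low counts, none had an unadjusted p under 0.05. Six2, at 31.1, 42.6, 30.6 and 31.03 CPM, gave the largest change of these, -0.29 ± 0.15 (edgeR adjusted p = 0.745). Its control and mutant values did not overlap, but mutant 2 and control 1 differed by far less than the controls did from each other. How many of all genes separated in this way in mesenchyme was not computed. Eya2 followed at -0.23 ± 0.14, Six4 was at 0.13 ± 0.19, and Eya1, Eya3, Eya4 and Six5 lay between -0.11 and 0.01. Without control 1 the Six2 change was -0.51 with an adjusted p of 0.0214, which rests on control 2 as the single control.
Within chondrogenic mesenchyme alone, where Six2 was highest, the Six2 change was -0.57 ± 0.26 (edgeR adjusted p = 1). Of 9050 genes tested there, 0% were called and 310 had an unadjusted p under 0.05, Six2 among them. The control values given above, 85.1 and 148.8 CPM, and the mutant values, 75.3 and 78.1 CPM, did not overlap. Six4 in the same cells was at 15.2, 19.7, 11.7 and 9.77 CPM, also without overlap (-0.68 ± 0.46, edgeR adjusted p = 1), from 22, 13, 9 and 9 UMIs. In osteogenic mesenchyme, with 0% of 12369 genes called, Eya1 was at 122.8, 168.4, 113.5 and 122.0 CPM (-0.36 ± 0.17, adjusted p = 0.984). Both sub-gates were chosen after their levels were seen. How many of all genes separated without overlap in these cells was not computed, so no genotype difference is read from Six2 or Six4.

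In epithelium edgeR called 0% of 12784 genes (500 at an unadjusted p under 0.05, 6 by DESeq2), and none of the 8 members had an unadjusted p under 0.05. Eya4 changed by 0.65 ± 0.46, Six3 by 0.46 ± 0.30, Eya1 by 0.42 ± 0.42 and Six5 by -0.61 ± 0.37, each with an adjusted p near 0.97. The groups overlapped for all 4. For Six3, Eya1 and Eya4 control 2 was the lowest library whereas control 1 was close to the mutants, and for Six5 control 1 was the highest. Without control 1 the changes of Six3 (1.15, adjusted p = 0.0102), Eya1 (1.57, adjusted p = 0.000802) and Eya4 (1.93, adjusted p = 0.00199) passed, and without control 2 they were 0.10, -0.09 and 0.13. Eya4 also passed with no filter on low counts (0.65, edgeR adjusted p = 0.00549), where 300 genes were called. In keratinocyte-type epithelium alone, Eya4 changed by 0.15 ± 0.27, Eya1 by 0.34 ± 0.37 and Six3 by 0.40 ± 0.31. There 0% of 11852 genes were called. The sub-gates were not exclusive of one another. This fit may therefore still hold cells of the sub-gates that control 2 lacked or held in 4 cells.

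Neurons and muscle had too few cells for this test, with 8 and 7 in the smallest library. Six4 and Eya2 in muscle and Eya3 in neurons were lower in both mutants than in both controls. These values rested on 8, 6, 1 and 2 UMIs for Six4, 6, 11, 2 and 2 for Eya2, and 7, 7, 2 and 1 for Eya3. For Eya3 the gap was that between 53.6 CPM in control 2 and 52.6 CPM in mutant 1. The share of all genes whose groups separated in this way was not computed, so no genotype difference is read from them. Cells past the neuron gate, counted whether or not they passed other gates, could be tested. This set is mostly not the neuron class. Beside the 51 neurons it holds 346 cells past the neuron and mesenchyme gates and 113 past the epithelial and neuron gates. Of 11804 genes 0% were called (529 at an unadjusted p under 0.05), none of the 8 members among the latter. Member changes lay between -0.32 and 0.27. Neurons widened by cells that also passed the epithelial gate could be tested as well: 0.0229% of 8723 genes were called, none of them a member, and the changes of the 7 members tested lay between -0.29 and 0.56. Whether a genotype difference itself differed between classes was tested as an interaction. It was called for 0.0286% of genes between epithelium and mesenchyme, for 0.0572% between neurons and mesenchyme and for 0% between muscle and mesenchyme (357 at an unadjusted p under 0.05). No member passed; Eya2 between neurons and mesenchyme had an unadjusted p of 0.0409 (adjusted p = 0.738).

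**Figure D5:**
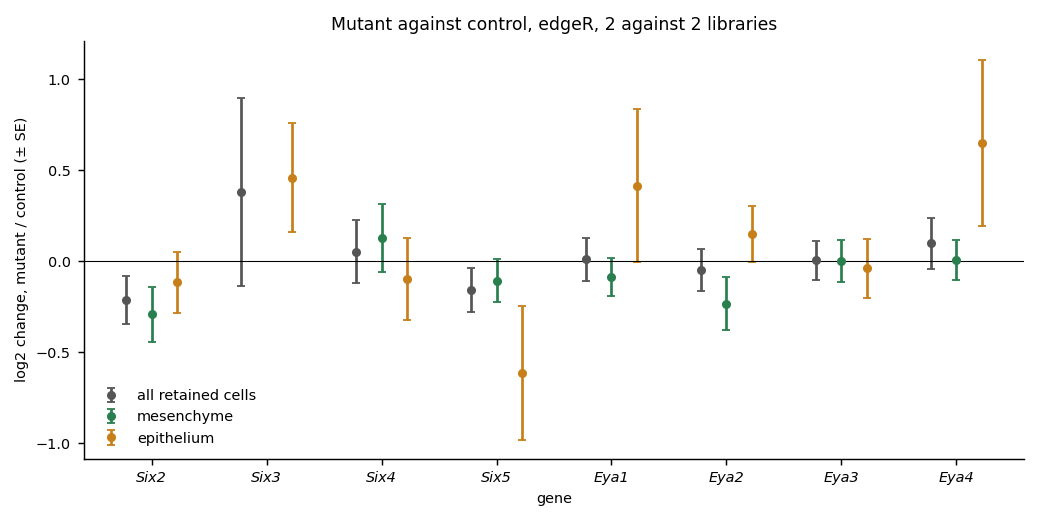
Fitted log2 change between mutant and control libraries (y axis, points with SE bars, 2 against 2 libraries) of each member (x axis) over all retained cells, in mesenchyme and in epithelium. The mesenchymal points lie between -0.29 and 0.13, and the widest bars belong to Six3 over all cells and to Eya1, Eya4 and Six5 in epithelium.

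Partner and placodal genes also gave no call between mutant and control. In mesenchyme Pax3 had the highest change of the partners, 0.56 ± 0.14 (edgeR adjusted p = 0.521), and Tle4 the lowest, -0.29. Among placodal genes there, Sox2 was highest at 0.69 and Gata3 lowest at -0.66 ± 0.15 (edgeR adjusted p = 0.459). In epithelium the partners ran from Dach1 at -0.47 to Pax9 at 0.78, and Dlx6 had the highest change of the placodal genes, 0.92.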

How the data were processed

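The authors deposited 1 filtered matrix of raw UMI counts per library, made with Cell Ranger 8.0.1 per the file headers and version 4 per the submitters' processing notes, which also name Seurat 4.3.0 and mm10. The labels' protocols name more than 1 sequencing site without assigning libraries, and a further sample, not analysed here. The members and gene lists were chosen with earlier results of these data known. All members were named; partner and placodal genes were named if they passed a test in a class or were the highest or lowest of their list; neighbours were the nearest gene on each side in the RefSeq table; likeness took 3 genes per member reaching 20 CPM. In all 3 genes that these rules name are not reported here.

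From the deposited counts, UMIs were summed per library and gated class and divided by the class's total (CPM). The 3-prime tag counts are not scaled by length and were not compared between genes. Cells past 2 or more gates (920) or none (1274) stayed out of classes. Sums were tested with edgeR 4.0.16 (R 4.3.3; quasi-likelihood, TMM, filterByExpr, Benjamini-Hochberg over all genes tested, threshold 0.05) with mutants compared with controls where every library had at least 20 cells. The fit of 16 class sums and its interactions had no such minimum, so the neuron and muscle sums in it come from 7 to 21 cells per library. Scripts ran in Python 3.11.15. The fit was checked on simulated counts. Doublets were not removed in the main results: the automatic Scrublet threshold marked at most 1 cell per library, so an alternative removed the 56 to 163 highest scores per library (0.8% per 1000 barcodes, scanpy 1.11.5). Other alternatives were DESeq2 1.42.0, its size factors, no low-count filter, stricter cells (1000 genes, 5% mitochondrial), gates of 3 markers, cells counted in each gate, a replicate block, and each library left out. Intervals cover counting error only. Fits of single sub-gates and of neurons widened by the epithelial gate were chosen after seeing the data.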

Additional observations from a re-analysis of the deposited data

Results flagged for a closer look

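The genotype difference of Sox2, a gene of placodal and olfactory progenitors, differed between neurons and mesenchyme in the interaction test (log2 difference of differences -5.72 ± 0.81, edgeR adjusted p = 0.00426). Sox2 in neurons was at 319, 176, 0 and 12.6 CPM in control 1, control 2, mutant 1 and mutant 2, from 36, 23, 0 and 1 UMIs in 16, 11, 8 and 16 cells. In mesenchyme it was at 4.77, 1.77, 5.95 and 5.34 CPM. With neurons widened by cells that also passed the epithelial gate, its mutant against control change was -0.08 ± 0.37 (adjusted p = 0.999). The epithelial gate gene Epcam was at 142, 0, 394 and 264 CPM in the neurons, and its part in the result was not tested. Sox2 is not one of the Six2 to Six5 or Eya genes, none of which passed this test.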

How the results depend on the processing

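Of 530 member values recomputed under an alternative, 442 kept their direction and their side of the threshold, 63 changed sign, 17 passed only under the alternative and 8 no longer passed. Between epithelium and mesenchyme, Six3, Eya2, Six4 and Six5 passed under all 10 alternatives run. Where a value or count differed, the cause was not tested, and the values that changed sign were mostly small and uncalled. A mutant against control fit of muscle, or of neurons past the neuron gate alone, was not run, since a library held under 20 cells, and with 2 libraries a group each fit that left 1 out assumed that the lone library varied like the others.

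Genes called between mutant and control, 0 in each main fit, came to 10 (all cells), 300 (epithelium) and 505 (mesenchyme) with no filter on low counts, to 30, 6 and 42 with DESeq2, and to 0, 0 and 46 with the replicate block, which called no member. Nothing in the labels pairs same-numbered libraries, whose deviations correlated at r = -0.03, 0.14 and 0.00 in these fits. Leaving out each library gave 0 to 410, 0 to 669 and 0 to 734, the highest without control 1. Between classes, no filter gave 8746 genes for epithelium (5826 in the main fit) and 3127 for neurons (1910). Neurons gave 3293 with gates of 3 markers, 4567 with cells counted in each gate, 5473 when widened by the epithelial gate and 1140 to 1804 with a library left out. Muscle gave 5525 with cells counted in each gate (3557 in the main fit) and 2197 to 3326 with a library left out. The interaction of epithelium, 3 in the main fit, gave 33 with no filter, 0 under both other gates and 0 to 205 with a library left out. That of neurons, 6, gave 103, 0 and 0, 3 with doublets removed, 2 when widened and 0 to 100, and that of muscle, 0, gave 4 with no filter and 0 to 2.

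These log2 values changed sign. Over all cells Eya1 was -0.0061 with stricter cells. In epithelium Six2 and Six4 were 0.086 and 0.083 with 3 markers, and Eya2 and Eya3 were -0.040 and 0.0077 with cells in each gate. In mesenchyme Eya3 was -0.0010 with size factors and -0.0029 with cells in each gate, and Eya1 0.0037 with 3 markers. Chondrogenic cells alone gave -0.68 for Six4 and 0.070 for Six5, and osteogenic cells alone -0.28, 0.14 and, for Eya3, -0.23. Between neurons and mesenchyme Eya1 and Eya3 were -0.20 and -0.22 with no filter and -0.56 and -0.010 with stricter cells. Eya1 was -0.15 with doublets removed, Six3 and Eya4 -3.73 and -0.33 with 3 markers, Six4 and Eya3 0.31 and -0.017 with cells in each gate, and Six4 1.18 when widened. Between muscle and mesenchyme Eya1 was -0.030 with size factors, -0.24 with no filter, -0.015 with 3 markers and -0.20 with cells in each gate. Eya3 was -0.063, -0.049 and -0.13 under the last 3 of these.

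Leaving out 1 library moved these values across 0. Over all cells the ranges were -0.23 to 1.59 for Six3, -0.13 to 0.22 for Six4, -0.11 to 0.12 for Eya1, -0.19 to 0.085 for Eya2, -0.11 to 0.13 for Eya3 and -0.058 to 0.24 for Eya4. Six3 passed there without control 1 (edgeR adjusted p = 0.0159). In epithelium they were -0.19 to 0.0079 for Six2, -0.24 to 0.20 for Six4, -0.095 to 1.57 for Eya1, -0.0095 to 0.31 for Eya2 and -0.073 to 0.017 for Eya3. In mesenchyme they were -0.13 to 0.33 for Six4, -0.21 to 0.016 for Eya1, -0.14 to 0.15 for Eya3 and -0.084 to 0.11 for Eya4. Between epithelium and mesenchyme they were -0.0089 to 0.17 for Six2 and -0.0069 to 0.41 for Eya4. Between neurons and mesenchyme they were -1.61 to 0.0033 for Six4, -0.26 to 0.32 for Eya1, -0.20 to 0.32 for Eya3 and -0.18 to 0.54 for Eya4, and between muscle and mesenchyme -0.37 to 0.17 for Eya1.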
